A study of Homo sapiens with 8 samples.

Results

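The genes described here are 10 feedback genes of the ERK pathway, chosen by name from general knowledge of that pathway and not from their values. Earlier results of these data were known when they were chosen. They are the MAP kinase phosphatases DUSP4, DUSP5 and DUSP6, the Sprouty proteins SPRY2 and SPRY4, the SPRED proteins SPRED1 and SPRED2, the ETS transcription factors ETV4 and ETV5, and PHLDA1. All 10 were found among the 60710 rows of the count table, and all 10 were among the 16186 genes with enough counts to be tested. The samples were cultures of A375, an established human metastatic melanoma line that carries an activating BRAF mutation and so signals through MEK and ERK without a growth factor. One group received 50 ng/mL human recombinant TNF for 24 hours, 1 day after seeding, and the other group (NT) was seeded alike and received none. Both groups were parental cells of this 1 line grown with serum, with 4 libraries each, 1 pair from each of 4 independent experiments, numbered 1 to 4 here by the date that the labels of both libraries share, so that replicate 3 of either group comes from experiment 3.

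ERK is the last kinase of the RAS, RAF and MEK chain, and active ERK switches on genes whose products then damp the same chain. DUSP proteins strip the activating phosphates from ERK and related kinases, Sprouty proteins act between growth factor receptors and RAF, and SPRED proteins carry neurofibromin to the membrane, where it turns RAS off. ETV4, ETV5 and several of the others are repressed by capicua, a DNA-binding protein that ERK inactivates, and their RNA levels are widely used as a readout of ERK output in melanoma cells. TNF acts through another route, mainly NF-kB, and also reaches the MAP kinases.

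TNF libraries held 33317454 to 43125094 counts and NT libraries 30989787 to 44373296. All 8 NF-kB target genes checked were higher with TNF by edgeR, with a median log2 fold change of 3.69, which is the check that the cells responded. SOX10, which marks the melanocyte lineage, had 35356 to 47215 counts in TNF libraries and 30287 to 50714 in NT libraries, while the pigment gene TYR had at most 1 count in TNF libraries and 0 in NT libraries. After normalization every TNF library was above every NT library for SOX10. Its log2 fold change was 0.20, with an adjusted p of 0.088, and 0.0098 when compared within experiments (edgeR). MITF (0.06), MLANA (0.14) and PMEL (-0.02) did not pass, MLANA and PMEL from few counts. S100B, another marker of the lineage, fell to 85 to 122 counts in TNF libraries, against 371 to 952 in NT libraries (log2 fold change -2.50, adjusted p 6.8e-06, edgeR). PTPRC, the leukocyte marker, had at most 2 counts in TNF and 1 in NT libraries. Over 10 markers of other cell types the summed level was 56.9 to 95.8 CPM (counts scaled to a common library size, here after normalization by the trimmed mean of M-values, TMM) in TNF libraries and 48.4 to 55.0 CPM in NT libraries. By edgeR 4 of the 8 that could be tested were higher and 2 lower. CD68, a macrophage marker that many tumour lines also express, rose by 1.26 on the log2 scale. It alone gave 42.0 to 71.9 CPM of the sum in TNF libraries and 20.8 to 27.0 CPM in NT libraries. KRT14 fell by 1.12 and LYZ by 0.90. KRT5 rose by 3.02, PECAM1 by 2.84 and DCN by more than CD68, all from few counts. The part of other cells in the results below was not tested. The small RNAs 7SK and 7SL made up 0.00856% of counts in TNF replicate 4, 0.00924% in NT replicate 2 and 0.00886% in NT replicate 4, and at most 0.00323% in the other libraries.

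With TNF, the feedback genes did not move as 1 group. DUSP5 and PHLDA1 rose, ETV5 fell slightly, and the remaining 7 did not pass the test when treatment was the only term. The test was edgeR's quasi-likelihood test, with p-values adjusted over all 16186 genes (Benjamini-Hochberg) and a threshold of 0.05. Thus 2 of 10 members were called higher, where 14.5% of all genes tested were, and 1 of 10 was called lower, where 9.9% of all genes were. The median log2 fold change of TNF over NT was -0.02 over the 10 members and -0.0035 over all genes, whose quartiles were -0.20 and 0.24.

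The 4 experiments differed in the level of several of these genes, so the same comparison was also made within experiments, with the experiment as a block in the edgeR fit. The block raised the calls to 4 members higher (DUSP5, DUSP6, SPRY2 and PHLDA1), against 21.3% of all genes, and 2 members lower (SPRY4 and ETV5), against 18.2% of all genes. The same 6 genes differed in 1 direction in all 4 experiments. That is 4 of 10 members higher throughout, where 27.4% of genes were, and 2 of 10 lower throughout, where 25.9% of genes were. DUSP4, SPRED1, SPRED2 and ETV4 passed neither fit.

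**Figure D1:**
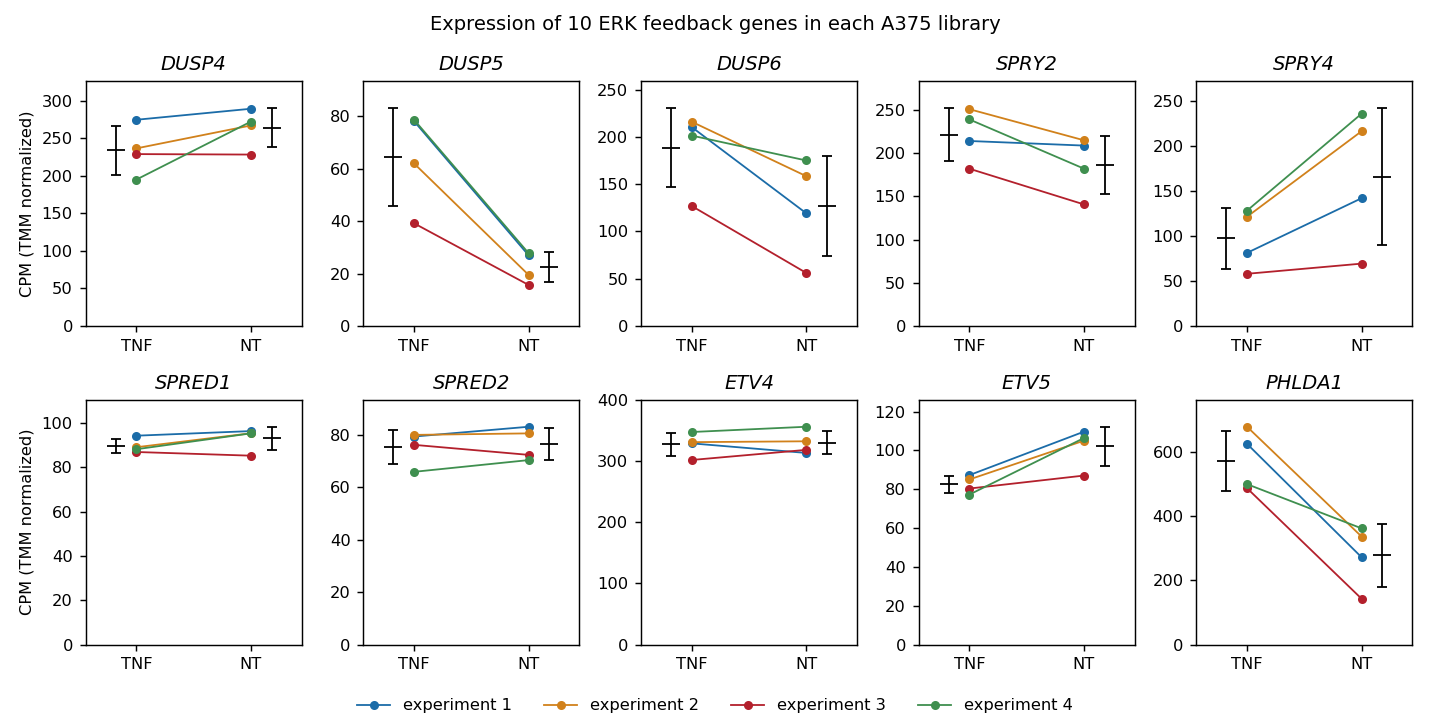
Each panel plots 1 gene, with TMM-normalized CPM on the vertical axis from 0, TNF libraries left and NT libraries right, lines joining the libraries of 1 experiment and black marks showing mean ± SD (n = 4). The TNF and NT libraries of DUSP5 and PHLDA1 did not overlap, and experiment 3 was the lowest in both groups for 6 of the 10 genes.

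Of the phosphatases, DUSP5 rose, DUSP6 was higher in every experiment but passed only the fit with the block, and DUSP4 passed neither. DUSP5 is a nuclear phosphatase that is specific for ERK and also holds it in the nucleus. The gene (ENSG00000138166) lies on the plus strand of GRCh38 at chr10:110497907-110511533. Its level was 78.2, 62.0, 39.2 and 78.7 CPM in TNF replicates 1 to 4, against 27.0, 19.5, 15.7 and 27.8 CPM in NT replicates 1 to 4. The lowest TNF library, that of experiment 3, was thus above every NT library. Over the groups DUSP5 averaged 64.5 ± 18.6 CPM with TNF and 22.5 ± 5.88 CPM in NT cells (SD, n = 4 each), a 2.86-fold difference. The edgeR log2 fold change was 1.52 ± 0.24 (SE), with a 95% interval of 0.98 to 2.06 and an adjusted p of 0.0013. By the size of its change DUSP5 ranked 698 of the 16186 genes tested. Within experiments the log2 differences were 1.53, 1.67, 1.32 and 1.50, so this gene responded by nearly the same factor whether its level in the experiment was high or low. The only alternative that ended the call was leaving out the 3 libraries with more 7SK and 7SL RNA, which kept a log2 fold change of 1.47 with an adjusted p of 0.081 (edgeR).

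DUSP6, the cytoplasmic ERK phosphatase and one of the genes most often read as a gauge of ERK output, lies on the minus strand at chr12:89347235-89352501 (ENSG00000139318). It had 210.3, 216.0, 126.9 and 201.4 CPM in TNF replicates 1 to 4, against 119.2, 158.5, 56.1 and 175.0 CPM in NT replicates 1 to 4. The groups overlapped, since TNF replicate 3 lay between the NT libraries, yet each TNF library exceeded the NT library of its own experiment. DUSP6 averaged 189 ± 41.6 CPM with TNF and 127 ± 52.8 CPM in NT cells (SD, n = 4 each). The log2 fold change was 0.57, with a 95% interval of -0.13 to 1.27 and an adjusted p of 0.23 by edgeR. With the block it was 0.66, with an interval of 0.21 to 1.10 and an adjusted p of 0.036. The size of the difference was uneven, with log2 values of 0.82, 0.45, 1.18 and 0.20 in experiments 1 to 4. The largest value came from experiment 3, where the NT level was the lowest, and the smallest from experiment 4, where it was the highest. The blocked call held without experiment 3 (log2 fold change 0.49, adjusted p 0.021) and without experiment 4 (0.80, adjusted p 0.041), and did not hold where the block was combined with library totals or upper-quartile factors in place of TMM.

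DUSP4, a nuclear phosphatase that acts on ERK and on the stress kinases, lies on chromosome 8 (GRCh38, 29333064 to 29350684, minus strand, ENSG00000120875). It had 274.9, 236.7, 229.1 and 195.2 CPM in TNF replicates 1 to 4, against 289.6, 267.3, 228.5 and 272.4 CPM in NT replicates 1 to 4. Experiments 1, 2 and 4 were lower with TNF and experiment 3 was level. DUSP4 had a log2 fold change of -0.18, with an interval of -0.42 to 0.06 and an adjusted p of 0.29, and with the block it was -0.18 with an adjusted p of 0.087 (edgeR). DUSP4 passed the test as lower in 3 variants of the block, with library totals (-0.26, adjusted p 0.045), with upper-quartile factors (-0.24, adjusted p 0.038) and without experiment 3 (-0.24, adjusted p 0.043).

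The 2 Sprouty genes moved apart. SPRY2, an inhibitor of receptor signalling to RAS that is found in most tissues, lies at chr13:80335976-80341126 on the minus strand (ENSG00000136158). It had 213.9, 250.6, 181.8 and 238.8 CPM in TNF replicates 1 to 4, against 208.6, 214.7, 140.6 and 181.9 CPM in NT replicates 1 to 4. Each TNF library was above its NT partner, by a log2 difference of only 0.04 in experiment 1 and by 0.22, 0.37 and 0.39 in the others, and the groups overlapped. SPRY2 had a log2 fold change of 0.25, with an interval of -0.06 to 0.56 and an adjusted p of 0.25, and with the block it was 0.26 with an adjusted p of 0.0098 (edgeR). The blocked call was lost where library totals replaced TMM.

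SPRY4, a Sprouty protein that also restrains receptor-driven RAS and RAF activity, lies at chr5:142310427-142326455 on the minus strand (ENSG00000187678). Its values were 81.2, 121.3, 57.9 and 128.0 CPM in TNF replicates 1 to 4, against 141.8, 216.1, 69.2 and 235.5 CPM in NT replicates 1 to 4. Each TNF library was below its NT partner, but NT replicate 3 lay below 3 of the TNF libraries. SPRY4 averaged 97.1 ± 33.3 CPM with TNF and 166 ± 75.9 CPM in NT cells (SD, n = 4 each). The log2 fold change was -0.77, with an interval of -1.62 to 0.08 and an adjusted p of 0.18 (edgeR). With the block it was -0.70, with an interval of -0.94 to -0.46 and an adjusted p of 0.0014. The difference was -0.80, -0.83 and -0.88 in experiments 1, 2 and 4 and -0.26 in experiment 3. The fit on treatment alone depended on the libraries used. Without NT replicate 3 the log2 fold change was -1.03 with an adjusted p of 0.026 (edgeR). Without all of experiment 3, a choice made after seeing the data, it was -0.84 with an adjusted p of 0.035. Without the 3 libraries with more 7SK and 7SL RNA it shrank to -0.29, with an adjusted p of 0.74 (edgeR).

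**Figure D2:**
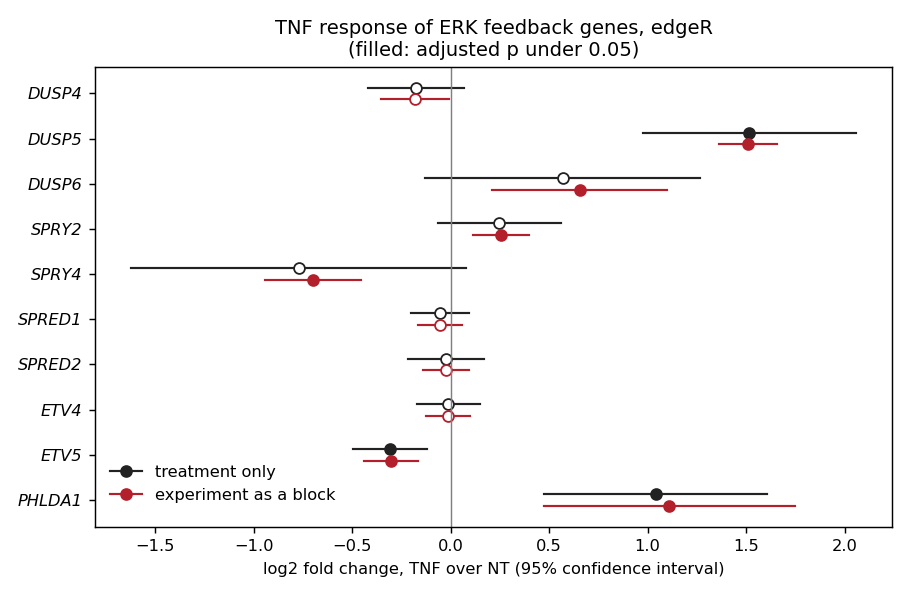
Points give the edgeR log2 fold change of TNF over NT (horizontal axis) for each gene, with bars for the 95% confidence interval, from the fit on treatment alone (black) and with experiment as a block (red), filled where the adjusted p was under 0.05. The intervals of SPRY4 and DUSP6 include 0 in the first fit and not in the second, while those of SPRED1, SPRED2 and ETV4 include 0 in both.

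The SPRED genes stayed within narrow bounds. SPRED1, whose loss in people causes a RAS pathway syndrome and which binds neurofibromin, lies at chr15:38252836-38357249 on the plus strand (ENSG00000166068). It averaged 89.6 ± 3.24 CPM with TNF and 93.1 ± 5.24 CPM in NT cells (SD, n = 4 each). Its log2 fold change was -0.05, with an interval of -0.20 to 0.09 and an adjusted p of 0.62 (edgeR). SPRED2, its close relative, lies at chr2:65310851-65432637 on the minus strand (ENSG00000198369). It averaged 75.4 ± 6.53 CPM with TNF and 76.7 ± 6.19 CPM in NT cells (SD, n = 4 each), and its log2 fold change was -0.02, with an interval of -0.21 to 0.17 and an adjusted p of 0.88 (edgeR). Both intervals exclude a change of the size seen for DUSP5 or PHLDA1.

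Of the ETS factors ETV5 fell slightly and ETV4 did not pass the test. Both belong to the PEA3 group of ETS activators. ETV5 lies at chr3:186046314-186110318 on the minus strand (ENSG00000244405). It had 87.3, 85.0, 80.3 and 77.2 CPM in TNF replicates 1 to 4, against 109.6, 105.0, 87.0 and 106.3 CPM in NT replicates 1 to 4. Each TNF library was below its NT partner, and the groups touched only because TNF replicate 1 lay just above NT replicate 3. ETV5 averaged 82.5 ± 4.52 CPM with TNF and 102 ± 10.2 CPM in NT cells (SD, n = 4 each), a ratio of 0.808. The log2 fold change was -0.31 ± 0.08 (SE), with an interval of -0.49 to -0.12 and an adjusted p of 0.023, and with the block it was -0.30 with an adjusted p of 0.0028 (edgeR). The call of the fit on treatment alone was close to the threshold. It was lost without TNF replicate 3 (adjusted p 0.059), NT replicate 1 (0.065), NT replicate 2 (0.067) or NT replicate 4 (0.051), without experiment 4 (0.053) and without the 3 libraries with more 7SK and 7SL RNA (0.15), all by edgeR, with log2 fold changes between -0.29 and -0.23.

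ETV4, by contrast with its relative, had 328.6, 330.6, 301.5 and 347.2 CPM in TNF replicates 1 to 4, against 313.0, 332.0, 318.0 and 355.7 CPM in NT replicates 1 to 4. It lies at chr17:43527844-43579620 on the minus strand (ENSG00000175832). The groups covered nearly the same range. Its log2 fold change was -0.01, with an interval of -0.17 to 0.15 and an adjusted p of 0.93 (edgeR).

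PHLDA1, a pleckstrin homology-like protein whose RNA follows MEK and ERK activity in many tumour lines, was the other member that rose. It had 625.2, 678.6, 487.1 and 499.7 CPM in TNF replicates 1 to 4, against 272.0, 336.5, 142.7 and 362.0 CPM in NT replicates 1 to 4. Every TNF library was above every NT library. PHLDA1 averaged 573 ± 94.2 CPM with TNF and 278 ± 98.0 CPM in NT cells (SD, n = 4 each), a 2.06-fold difference. The log2 fold change was 1.04 ± 0.25 (SE), with an interval of 0.48 to 1.61 and an adjusted p of 0.014, and with the block it was 1.11 with an adjusted p of 0.024 (edgeR). The experiments were less even than for DUSP5, with log2 differences of 1.2, 1.01, 1.77 and 0.46, and as for DUSP6 the largest was that of experiment 3 and the smallest that of experiment 4. Without the filter on low counts, which raised the number of genes tested to 31690, the log2 fold change was 1.03 with an adjusted p of 0.0997. DUSP5 and PHLDA1 were thus the 2 of 10 members whose TNF libraries all lay above the NT libraries, where 15.6% of all genes did, and 0 of 10 members had TNF libraries all below NT, where 11.7% of all genes did.

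DUSP6 and PHLDA1 were also each other's nearest member by the distance between profiles. The distance was the root mean square difference of the log2 CPM over the 8 libraries, each gene centred on its mean, and it was 0.288 for this pair. Profiles were not scaled to equal spread, so genes that vary little lie close together whatever their pattern. SPRED1 with ETV4 (0.0816) and DUSP4 with ETV5 (0.101) were closer pairs in this sense. The SD of log2 CPM within groups was only 0.069 for SPRED1 and 0.084 for ETV4. The 3 genes nearest to PHLDA1 among all genes lay at 0.166 to 0.170. Among all genes the 3 nearest to DUSP6 were ETV3 at 0.205, an ETS repressor, and the unnamed loci AL445493.2 at 0.275 and AL132656.4 at 0.277. Both members lie on chromosome 12. Both genes were higher with TNF in all 4 experiments, most in experiment 3 and least in experiment 4. Their NT level was also lowest in experiment 3 and highest in experiment 4. ERK acts on DNA through ETS factors among others, and whether such factors act on these genes was not tested. The promoters of this pair, picked after its values were seen, are shown as a description. They are the 250 bases before the start of the gene in the RefSeq promoter table (GRCh38.p14), at chr12:89352502-89352751 for DUSP6 and chr12:76031777-76032026 for PHLDA1, both read 5′ to 3′ on the minus strand. Capitals mark the letters GGAA, the core that ETS factors bind, or TTCC, the same core on the other strand.
DUSP6: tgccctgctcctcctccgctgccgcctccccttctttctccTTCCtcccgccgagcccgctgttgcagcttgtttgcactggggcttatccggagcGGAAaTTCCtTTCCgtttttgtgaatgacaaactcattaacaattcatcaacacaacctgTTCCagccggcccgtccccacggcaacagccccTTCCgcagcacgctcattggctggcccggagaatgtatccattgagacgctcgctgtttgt
PHLDA1: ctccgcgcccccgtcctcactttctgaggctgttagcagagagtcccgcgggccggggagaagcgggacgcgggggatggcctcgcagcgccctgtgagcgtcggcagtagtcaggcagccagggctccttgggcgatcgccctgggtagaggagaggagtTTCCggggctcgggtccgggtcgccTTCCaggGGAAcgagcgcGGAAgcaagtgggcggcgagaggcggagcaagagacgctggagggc
The DUSP6 window holds 6 such cores, which 9.14% of the 35116 windows in the table reach or pass. The PHLDA1 window holds 4, which 34.3% reach or pass, and the median window holds 3. Among the other members with windows, SPRED2, which passed neither fit, holds 4 and 5 cores. SPRY2 holds 3, 4 and 4, SPRED1 holds 3 and SPRY4 holds 2. This core was searched after longer motifs had found no match, and 92.7% of windows hold at least 1, so a match is a description of the letters and not of a bound site.

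Of the 10 members, 6 had an entry in that table, with 9 windows between them. These were DUSP6, SPRY2, SPRY4, SPRED1, SPRED2 and PHLDA1, and DUSP4, DUSP5, ETV4 and ETV5 did not match. In the 250 bases before the start, on both strands, 5 longer motifs were searched. They were the capicua octamers TGAATGAA and TGAATGGA, the ETS octamer CCGGAAGT, the AP-1 site TGANTCA and an NF-kB site, spelled GGG and TTTCC with any 2 bases between them. None of the 9 windows held any of these, and the share of all 35116 windows that did was 1.4% and 0.832% for the capicua octamers, 3.42% for the ETS octamer, 6.57% for the AP-1 site and 1.73% for the NF-kB site. Absence from this window says only that these letters are not in it.

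For several members the experiment took a larger share of the variance than TNF did. The experiment has more degrees of freedom than treatment, so a larger share does not by itself mean a larger effect. Of the variance of log2 CPM over the 8 libraries, the experiment took 71.1% for SPRY4, 60.7% for DUSP6 and 65.1% for SPRY2, and treatment took 25.5%, 29.9% and 26.7% of it. For DUSP5, PHLDA1 and ETV5 the order was the other way, with 80.0%, 65.8% and 67.7% for treatment and 19.5%, 22.7% and 21.0% for the experiment. The medians over all genes were 28.7% for treatment and 45.0% for the experiment. In SPRED2 and ETV4 almost all of a small variance lay between experiments, 89.7% and 85.6%.

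Experiment 3 was the low one. In both groups its library was the lowest of the 4 for DUSP5, DUSP6, SPRY2, SPRY4, SPRED1 and PHLDA1, which is 6 of 10 members, where 8.25% of all genes had this pattern. The deviation of NT replicate 3 from the NT mean of log2 CPM was -1.11 for SPRY4, -1.06 for DUSP6 and -0.88 for PHLDA1, and that of TNF replicate 3 from the TNF mean was -0.67, -0.54 and -0.22 for these genes. Against 5826 genes whose mean log2 CPM reached 5, the spread of replicates within groups stood at percentile 99.7 for SPRY4, 99.5 for DUSP6, 98.8 for PHLDA1 and 98.4 for DUSP5, and at 11.3 for SPRED1 and 20.5 for ETV4. What set experiment 3 apart was not tested, and fewer cells of a kind and less RNA per cell cannot be told apart in bulk samples.

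**Figure D3:**
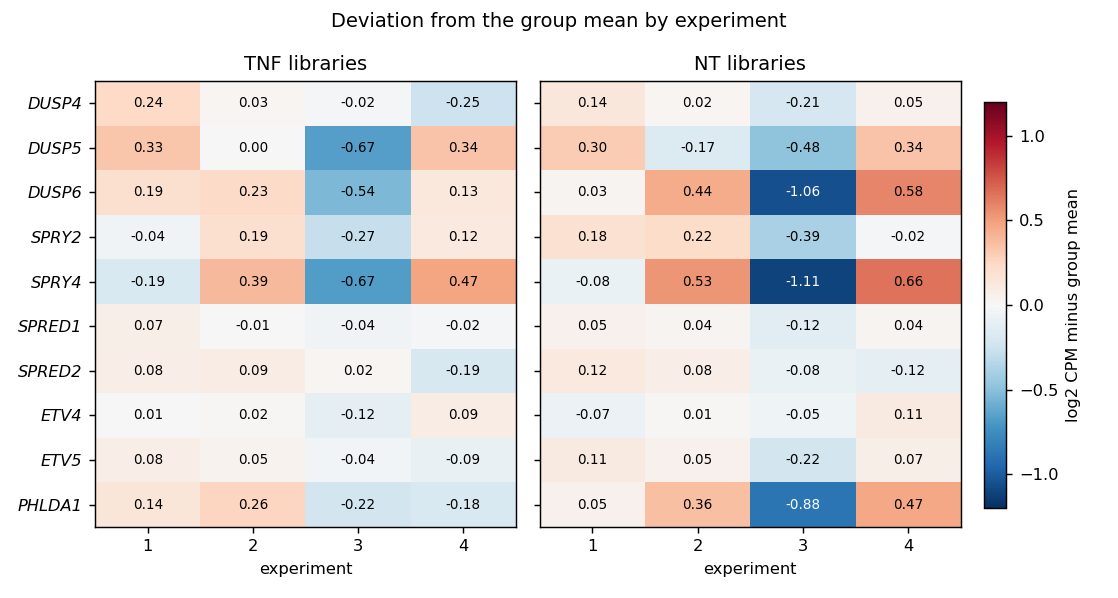
Each cell gives the log2 CPM of 1 library minus the mean of its group, with genes down the page and experiments 1 to 4 across, TNF libraries on the left and NT libraries on the right. Experiment 3 is below the mean for SPRY4 (-0.67 in TNF, -1.11 in NT) and DUSP6 (-0.54 in TNF, -1.06 in NT), while SPRED1 and ETV4 hardly vary.

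Ratios between relatives within a library do not depend on how libraries are scaled. They are ratios of CPM that are not divided by transcript length, so they compare libraries and not the levels of the genes with each other, and they are given as a description. The log2 ratio of SPRY4 to SPRY2 was -1.40, -1.05, -1.65 and -0.90 in TNF replicates 1 to 4, against -0.56, 0.0091, -1.02 and 0.37 in NT replicates 1 to 4. It was lower with TNF in all 4 experiments, by 0.95 on average, and the groups overlapped through NT replicate 3. The log2 ratio of DUSP4 to DUSP6 averaged 0.33 ± 0.39 with TNF and 1.17 ± 0.63 in NT cells (SD, n = 4 each), also lower in all 4 experiments. That of DUSP5 to DUSP6 averaged -1.57 ± 0.21 with TNF and -2.41 ± 0.53 in NT cells, and that of ETV5 to ETV4 averaged -1.99 ± 0.12 with TNF and -1.70 ± 0.15 in NT cells. In these last pairs the groups did not overlap, with TNF above NT for DUSP5 to DUSP6 and TNF below NT for ETV5 to ETV4. The ratio of SPRED1 to SPRED2 averaged 0.25 ± 0.12 with TNF and 0.28 ± 0.10 in NT cells.

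**Figure D4:**
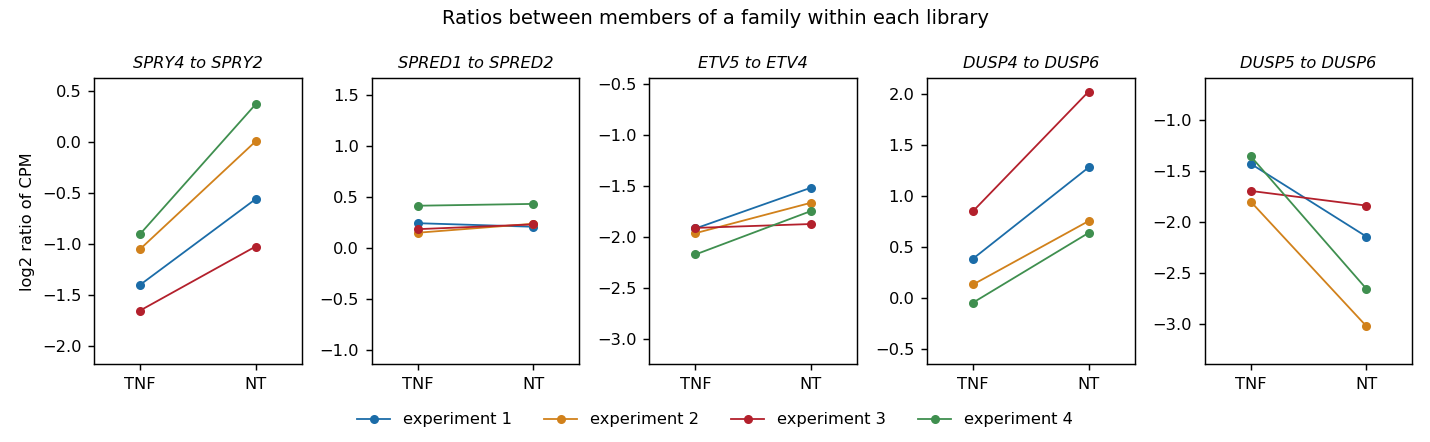
The vertical axes give the log2 ratio of CPM of 2 related genes in each library, over the same span in every panel, with TNF left, NT right and lines joining the libraries of 1 experiment. SPRY4 to SPRY2 and DUSP4 to DUSP6 are lower with TNF in all 4 experiments, and SPRED1 to SPRED2 is nearly level.

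To compare levels between genes, CPM were divided by the length of the canonical transcript in kilobases (GENCODE 44). ETV4 was the most abundant member in both groups, at 140 ± 8.10 CPM per kb with TNF and 141.2 ± 8.21 CPM per kb in NT cells (SD, n = 4 each). With TNF the order below it was PHLDA1 (96.8), SPRY2 (96.8), DUSP6 (52.0), DUSP4 (42.1), DUSP5 (26.0), ETV5 (20.2), SPRY4 (19.8), SPRED2 (16.7) and SPRED1 (12.3 CPM per kb). The libraries of neighbouring genes overlapped in this order for PHLDA1 and SPRY2, for DUSP6 and DUSP4, and along the run of DUSP5, ETV5, SPRY4 and SPRED2. In NT cells the order was ETV4, SPRY2 (81.6), DUSP4 (47.6), PHLDA1 (47.1), DUSP6 (35.1), SPRY4 (33.8), ETV5 (25), SPRED2 (17.0), SPRED1 (12.8) and DUSP5 (9.08 CPM per kb), with overlap between neighbours from DUSP4 to ETV5. DUSP5 was thus the sixth of the 10 with TNF and the lowest in NT cells.

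The rest of the pathway was read from lists of its genes, by the same edgeR test. The counts stand beside 14.5% of all genes called higher and 9.9% called lower, and 21.3% and 18.2% with the block, and nothing particular to a list is drawn from them. Among 13 other genes of the same families, 3 rose and 1 fell (with the block 7 and 2), with a median log2 fold change of 0.24. DUSP10, a phosphatase that prefers the stress kinases p38 and JNK, rose by 1.38, PHLDA2 by 0.87 and SPRED3 by 0.60 on the log2 scale. DUSP2, another nuclear phosphatase, fell by 1.10 at a low level (2.32 CPM with TNF and 4.96 CPM in NT cells). SPRY1 stood at -1.51 on the log2 scale and did not pass the test (adjusted p 0.11, edgeR), and passed with the block (-1.66, adjusted p 0.039). It and DUSP1 (0.52, adjusted p 0.22, and 0.57 with the block, adjusted p 0.0028) were picked out after their values were seen.

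Of 16 genes of the cascade and its scaffolds, 3 rose and 1 fell, which is near the shares over all genes, with a median of 0.06. With the block 6 rose and 1 fell, against 21.3% and 18.2% of all genes. MAP2K1, which encodes MEK1, rose to 125 ± 17.3 CPM with TNF, against 73.7 ± 8.56 CPM in NT cells (SD, n = 4 each), a log2 fold change of 0.76 with an adjusted p of 7.4e-04 (edgeR). NRAS rose by 0.66 and the scaffold KSR1 also by 0.66 on the log2 scale. KSR2, named after its value was seen, fell by 1.14 at a low level (1.12 CPM with TNF and 2.48 CPM in NT cells). BRAF and MAPK3, picked out after their values were seen, stood at 0.22 and 0.11 on the log2 scale and did not pass the test (adjusted p 0.15 and 0.73, edgeR). With the block BRAF passed as higher (0.23, adjusted p 0.026) and MAPK3 did not (0.11, adjusted p 0.16). Upstream, 14 of 15 receptor, adaptor and exchange factor genes were tested, of which CBLB rose by 0.45, FGFR4 fell by 0.78 and 12 were not called (with the block 2 rose and 2 fell).

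Among 12 genes listed as other negative regulators of RAS and ERK, 5 rose and 2 fell (with the block 7 and 3), with a median log2 fold change of 0.31. TRIB1, a pseudokinase that binds MEK1, rose by 0.98, the RAS GTPase-activating protein RASAL2 by 0.51 and ERRFI1, an inhibitor of the EGF receptor, by 0.48. The place of TRIB1 in this list is a choice, and whether it damps or raises ERK activity here was not tested. IL17RD, which like the Sproutys blocks FGF signalling, fell by 0.75 at a low level (2.49 CPM with TNF and 4.20 CPM in NT cells). RASA1 (0.45), LRIG1 (0.43) and PEBP1 (-0.36) made up the remaining calls and were named after their values were seen.

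Of the 13 other genes known to be induced through ERK, 8 were higher and 0 lower (with the block 8 and 2), with a median log2 fold change of 0.74. The list was chosen with earlier results of these data known, so nothing is drawn from how this median compares with those of other lists. LIF rose by 2.12, HMGA2 by 2.11, MAFF by 1.44 and FOSL1, an AP-1 subunit, by 0.99 on the log2 scale. FOS, EGR1 and MYC, picked out after their values were seen, had log2 fold changes of -0.63, -1.0 and -0.94 that did not pass the test (adjusted p 0.62, 0.11 and 0.087, edgeR). With the block FOS (-0.52, adjusted p 0.029) and MYC (-0.89, adjusted p 0.027) passed as lower. Many of the genes in this list are also targets of NF-kB or AP-1, and which route moved them was not tested.

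Of the ETS factors and capicua partners outside the members, 13 of 14 were tested, with 5 higher, 0 lower and a median of 0.27 (with the block 7 and 1). ETS1 rose to 289 ± 43.2 CPM with TNF, against 71.0 ± 5.68 CPM in NT cells (SD, n = 4 each), a log2 fold change of 2.02 with an adjusted p of 7.6e-07 (edgeR). FLI1 rose by 1.61, ATXN1, a capicua partner, by 0.79 and ELK3 by 0.67. CIC, the capicua gene itself and also picked out after its value was seen, stood at 0.06 on the log2 scale (adjusted p 0.63, edgeR). ETV3, the gene nearest to DUSP6 in profile, had 0.48 (adjusted p 0.14) and 0.52 with the block (adjusted p 0.011).

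**Figure D5:**
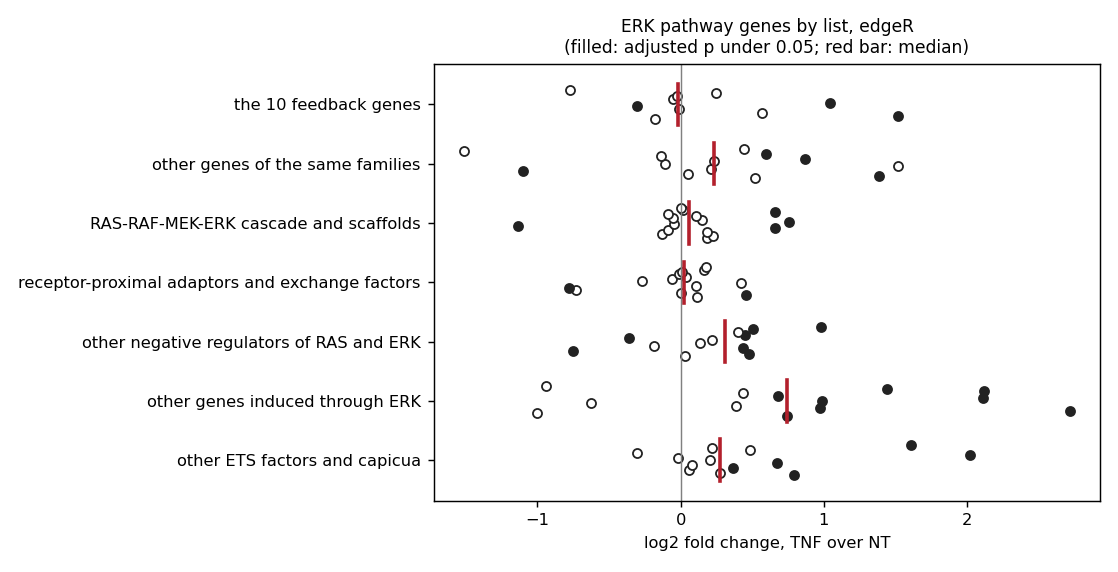
Each point is 1 tested gene, placed by its edgeR log2 fold change of TNF over NT (horizontal axis) and grouped by list, filled where the adjusted p was under 0.05, and the red bar is the median of the list. The median is -0.02 for the members and 0.74 for the other genes induced through ERK, lists that were chosen with earlier results of these data known.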

How the data were processed

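RNA of TNF-treated (50 ng/mL, 24 hours) and NT A375 cells was sequenced by the authors in 8 stranded libraries from polyadenylated RNA. Reads were aligned with bowtie2 (version not given in the sources used here) to the GRCh38 transcriptome. The authors deposited expected counts from RSEM 1.2.25, without normalization. The deposited TPM were not used. RSEM shares reads among similar transcripts, so counts of close relatives can be uncertain. Columns of the series table were matched to samples by title. The single files of the 4 NT samples hold the counts of another NT library, so the table was used, and these files entered 1 alternative without the block. That alternative only reorders the NT libraries within their group, so its result could not differ. The paired results rest on the labelling of the table.

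Expected counts were rounded, filtered with edgeR (minimum count 10, minimum total 15, by group), scaled by TMM and fitted in edgeR 4.0.16 under R 4.3.3 with treatment as the sole term and a robust quasi-likelihood test. DESeq2 1.42.0, limma 3.58.1 and the alternatives named in the closing section were also run. Log2 CPM used a prior count of 2. Both libraries of an experiment share a date, by which the numbers pair them. Their deviations from the group means had correlations of 0.35, 0.17, 0.24 and 0.46 over 16186 genes. Other pairings were not computed, so these values do not show that this pairing is the right one. Replicates of a group differed by more than counting noise (chi-square per degree of freedom at least 11.0). On simulated counts of TNF against NT (15935 genes tested), edgeR recovered 1.54% of 1.4-fold, 58.2% of 2-fold and 95.2% of 4-fold changes, and with the block 30.8%, 74.6% and 92.1%, with 7.25% of its calls false. Only 65, 67 and 63 genes were changed at these sizes, far fewer than were called in the data. A shift per experiment was added to dispersions that already held the differences between experiments. Recovery in the data may therefore differ from these shares.

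Members and lists were chosen with earlier results of these data known, so no test over a list was made. Named besides the members were up to 4 called genes of each list, by size of change, whose mean log2 CPM reached 1, and the 3 genes nearest to DUSP6. Genes named outside this rule, other than cell type markers, are marked as such. Positions are from GENCODE 44.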

Additional observations from a re-analysis of the deposited data

Results flagged for a closer look

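Of 30 sets of 4 replicates (the 10 genes and 5 ratios in each group), 3 held a library far from the others by Dixon's rule, where chance alone marks about 1 in 20. DUSP6 had a log2 CPM of 6.99 in TNF replicate 3, against 7.65 to 7.76 in the other TNF libraries. SPRED1 had a log2 CPM of 6.41 in NT replicate 3, against 6.58 to 6.59 in the other NT libraries. The log2 ratio of SPRED1 to SPRED2 was 0.44 in NT replicate 4, against 0.21 to 0.24 in the other NT libraries. Both of these levels belong to experiment 3, and what set these libraries apart was not tested.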

How the results depend on the processing

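Over 260 recomputed log2 fold changes of the members, 223 kept their direction and side of the threshold, 9 lost the call, 20 gained one and 8 changed sign. These 260 include the alternative with the single files, whose values could not differ. The sign changes were those of genes that were never called. SPRED2 was at 0.012 without the 3 libraries with more 7SK and 7SL RNA, and between -0.070 and 0.035 with 1 replicate left out. ETV4 was at 0.020 without those 3 libraries, 0.0080 without experiment 3, 0.0095 with the block and without experiment 3, and between -0.041 and 0.026 with 1 replicate left out.

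The number of members called higher was 2 and became 1 with no filter and 1 without the 3 libraries, and 4 with the replicate block, also without experiment 3, without experiment 4 or by DESeq2. With the block it was 3 under upper-quartile factors and 2 under library totals. The number called lower was 1 and became 0 without experiment 4, without the 3 libraries and above an absolute log2 fold change of 1. It was 2 without experiment 3, 2 with the replicate block, also by DESeq2 or without experiment 4, and 3 with the block without experiment 3, with library totals or with upper-quartile factors. With 1 replicate left out it ran between 0 and 2.

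Over all genes 2345 were higher and 1603 lower (59.4% of calls higher). Upper-quartile factors gave 2045 and 2196 (48.2%) and library totals 1925 and 2514 (43.4%). Genes called lower numbered 948 without experiment 3, 2946 with the paired fit by replicate block, 2702 with that block by DESeq2, 2601 and 3067 with it but without experiment 3 or 4, 4366 with library totals and 3975 with upper-quartile factors. Above an absolute log2 fold change of 1, 909 were higher and 387 lower. Leaving out experiment 3, and joining the block with another choice, were chosen after seeing the data. With 4 libraries per group, changes of 1.4-fold were seldom recovered by the fit on treatment alone in the simulation, whose settings differ from the data. The differences of SPRY2 and ETV5 were smaller than that, and ETV5 was still called. A gene not called is not shown to be unchanged.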
